A study of Mus musculus with 18 samples.

Results

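The transcripts described here are 41 interferon-stimulated genes and their Stat and Irf regulators, a list given by symbol, and all 41 have a row among the 23951 genes of the deposited table. Interferons are cytokines that bind receptors on the cell surface and act through Jak kinases on Stat proteins. Type I interferons act through a complex with Stat2 and Irf9 that binds the ISRE, a DNA element found before many antiviral genes, while interferon gamma acts on the GAS element. The induced proteins sense viral RNA, degrade it, block translation or tag other proteins with ISG15, and epidermis is known to induce them in viral infection and in psoriasis.

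RNA was measured in hair follicle stem cells of the bulge (HF-SCs) and basal keratinocytes of the epidermis (b-KCs), sorted from ear skin as CD45-negative cells high in CD49f that were CD34-positive or CD34-negative. DKO* mice carried floxed JunB and c-Jun alleles, K5-Cre-ERT and the mT/mG reporter, on a mixed background, and controls (Co) carried K5-Cre-ERT and mT/mG with wild-type or heterozygous JunB and c-Jun. All mice were males and females of 8 weeks that received tamoxifen in 4 daily injections of 2 mg, and cells were collected at day 7. In DKO* mice, the fraction that had recombined the reporter (mutant, GFP) and the fraction that had not (non-mutant, Tom) were sorted apart, which gave 6 groups of 3 libraries. The keratin 5 promoter drives Cre, so deletion is restricted to cells that use it and is mosaic. The 4 DKO* groups come from the same mice, 814, 815 and 817, and both Co groups come from mice 810, 825 and 828. In each list of 3 values below, mice follow in that order.

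Values are FPKM, fragments scaled by transcript length and library size, so levels may be compared between genes. Low values stepped in whole reads of a depth that works out at 16606000 to 26392000 reads, and 3 reads on 1 kb were worth 0.114 to 0.181 FPKM. Jun and Junb, the deleted genes, lay lower in each GFP library than in each Tom library of the same cell type, and lower in each Tom than in each Co library. Of 8 bulge markers, 7 were called higher in HF-SC Co than in b-KC Co. Against HF-SC Co, 5 of the 8 were called lower in HF-SC GFP and 7 in HF-SC Tom, where Cd34 fell from a mean of 736.5 FPKM to 198.3 (GFP) and 285.9 (Tom), while 1 HF-SC Co library listed Krt15 at 0. Krt14, which marks basal cells, was listed at 0 in 3 b-KC libraries of DKO* mice, so a 0 is not always a missing transcript. Markers of endothelial cells, which line vessels, stood apart in HF-SC Tom. Their summed level (10 genes) was 584 to 1948 FPKM there, 68.6 to 108 in HF-SC Co, 1.86 to 36.0 in HF-SC GFP and at most 10.4 in any b-KC library. Bulk values cannot tell fewer cells of a type from less RNA per cell. Reads carried no strand, so the values of members that overlap another gene (Dhx58, Dtx3l, Eif2ak2, Ifi35, Irf1, Irf7, Irf9, Oasl1, Parp9 and Sp100) are uncertain, as are those of the Ifit, Oas, Gbp and Mx families, whose members resemble each other.

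The promoters of 8 of the 12 members with the smallest adjusted p-values against Co are shown because the interferon response is read through short elements before the start of transcription. Samd9l and Gbp3 rank among them through HF-SC Tom, where the filter on low values described below partly set their difference. RefSeq windows (GRCm38.p6) were found for 32 of the 41 members. Shown are the 250 bases before the start, 5′ to 3′ on the strand of the gene, with matches to the ISRE core GAAANNGAAA and to the GAS core TTCNNNGAA, on either strand, in capitals. The windows lie at chr4:156200819-156201068 (minus strand) for Isg15, chr6:3399572-3399821 (minus) for Samd9l, chr3:142559794-142560043 (plus) for the first of 2 starts of Gbp3, chr7:141266425-141266674 (minus) for Irf7, chr19:34640639-34640888 (plus) for Ifit1, chr5:114896684-114896933 (plus) for Oasl2, chr5:120907526-120907775 (minus) for Oas1a and chr1:85649738-85649987 (plus) for the first of 2 starts of Sp100.
Isg15: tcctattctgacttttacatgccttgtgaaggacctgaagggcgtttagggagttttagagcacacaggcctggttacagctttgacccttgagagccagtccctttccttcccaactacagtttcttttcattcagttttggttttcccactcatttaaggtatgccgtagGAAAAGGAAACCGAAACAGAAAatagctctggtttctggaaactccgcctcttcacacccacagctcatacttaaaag
Ifit1: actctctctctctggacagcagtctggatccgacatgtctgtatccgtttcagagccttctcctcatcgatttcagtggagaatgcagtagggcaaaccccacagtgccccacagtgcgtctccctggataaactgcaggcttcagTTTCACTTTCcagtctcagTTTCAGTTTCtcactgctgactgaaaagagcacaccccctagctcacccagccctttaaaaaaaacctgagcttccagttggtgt
Oas1a: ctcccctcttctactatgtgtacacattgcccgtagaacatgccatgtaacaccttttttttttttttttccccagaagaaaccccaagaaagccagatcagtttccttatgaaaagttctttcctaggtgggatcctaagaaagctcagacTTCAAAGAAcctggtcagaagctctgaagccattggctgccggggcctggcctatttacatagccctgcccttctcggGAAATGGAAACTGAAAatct
Gbp3: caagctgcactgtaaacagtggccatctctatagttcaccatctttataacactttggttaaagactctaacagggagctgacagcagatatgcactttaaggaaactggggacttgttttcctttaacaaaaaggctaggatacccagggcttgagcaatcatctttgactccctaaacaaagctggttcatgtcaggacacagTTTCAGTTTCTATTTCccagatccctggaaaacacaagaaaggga
Samd9l: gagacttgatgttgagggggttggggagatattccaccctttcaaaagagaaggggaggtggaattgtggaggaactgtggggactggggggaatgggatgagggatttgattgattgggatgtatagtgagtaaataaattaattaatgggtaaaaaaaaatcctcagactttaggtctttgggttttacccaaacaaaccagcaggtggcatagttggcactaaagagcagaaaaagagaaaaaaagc
Irf7: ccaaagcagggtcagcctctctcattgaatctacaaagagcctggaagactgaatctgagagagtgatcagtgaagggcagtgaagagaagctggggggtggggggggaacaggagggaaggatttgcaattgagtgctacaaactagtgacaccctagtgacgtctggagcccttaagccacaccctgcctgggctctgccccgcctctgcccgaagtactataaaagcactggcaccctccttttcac
Oasl2: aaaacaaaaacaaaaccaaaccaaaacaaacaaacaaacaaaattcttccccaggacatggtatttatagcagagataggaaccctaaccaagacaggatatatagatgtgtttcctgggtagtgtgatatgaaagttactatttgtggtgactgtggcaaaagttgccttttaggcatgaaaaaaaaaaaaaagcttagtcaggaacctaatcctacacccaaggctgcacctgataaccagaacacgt
Sp100: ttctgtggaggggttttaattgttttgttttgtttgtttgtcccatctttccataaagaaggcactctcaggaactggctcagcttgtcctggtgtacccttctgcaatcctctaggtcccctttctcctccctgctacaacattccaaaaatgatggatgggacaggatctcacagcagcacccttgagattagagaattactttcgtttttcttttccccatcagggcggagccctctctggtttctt
Isg15 held 3 overlapping ISRE cores between 78 and 57 bases before its start, and Ifit1 held 2, at 104 to 95 and 85 to 76 bases before. Oas1a held 2 overlapping cores at 20 to 5 bases before its start and a GAS core at 98 to 90, and Gbp3 held 2 overlapping ISRE cores at 45 to 30 bases before. The windows shown of Samd9l, Irf7, Oasl2 and Sp100 held neither core, which says only that these letters are not in these 250 bases. Over all members with a window, 13 of 32 held an ISRE core, against 2.98% of all 32851 windows, and 7 of 32 held a GAS core, against 7.02%. A member with several windows was counted once if any of them matched. The other members with an ISRE core were Bst2, Gbp2, Gbp7, Ifit3, Igtp, Irgm1, Oas3, Rsad2 and Stat2, and a GAS core was found before Bst2, Eif2ak2, Gbp7, Ifit2, Igtp and Irf1 besides Oas1a.

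Many members were expressed at low levels. Of the 41, 16 stayed below 5 FPKM in every library and 7 never reached 1 FPKM, while 2 stayed above 10 FPKM throughout. The highest levels belonged to Irf1, a transcription factor of the interferon gamma response, at 33.4 to 95.4 FPKM, and to Ifi35, a cytosolic interferon-induced protein, at 16.4 to 48.4 FPKM. The filter of at least 1 FPKM in at least 3 libraries left 12751 genes and 30 of the members. Samd9l and Gbp3 passed it only through the HF-SC Tom libraries, so their difference in that group was partly set by the filter. The 11 others were Oas2, Oas3, Oasl1, Ifit2, Ifit3, Mx1, Mx2, Rsad2, Cmpk2, Ifi44 and Herc6.

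**Figure D1:**
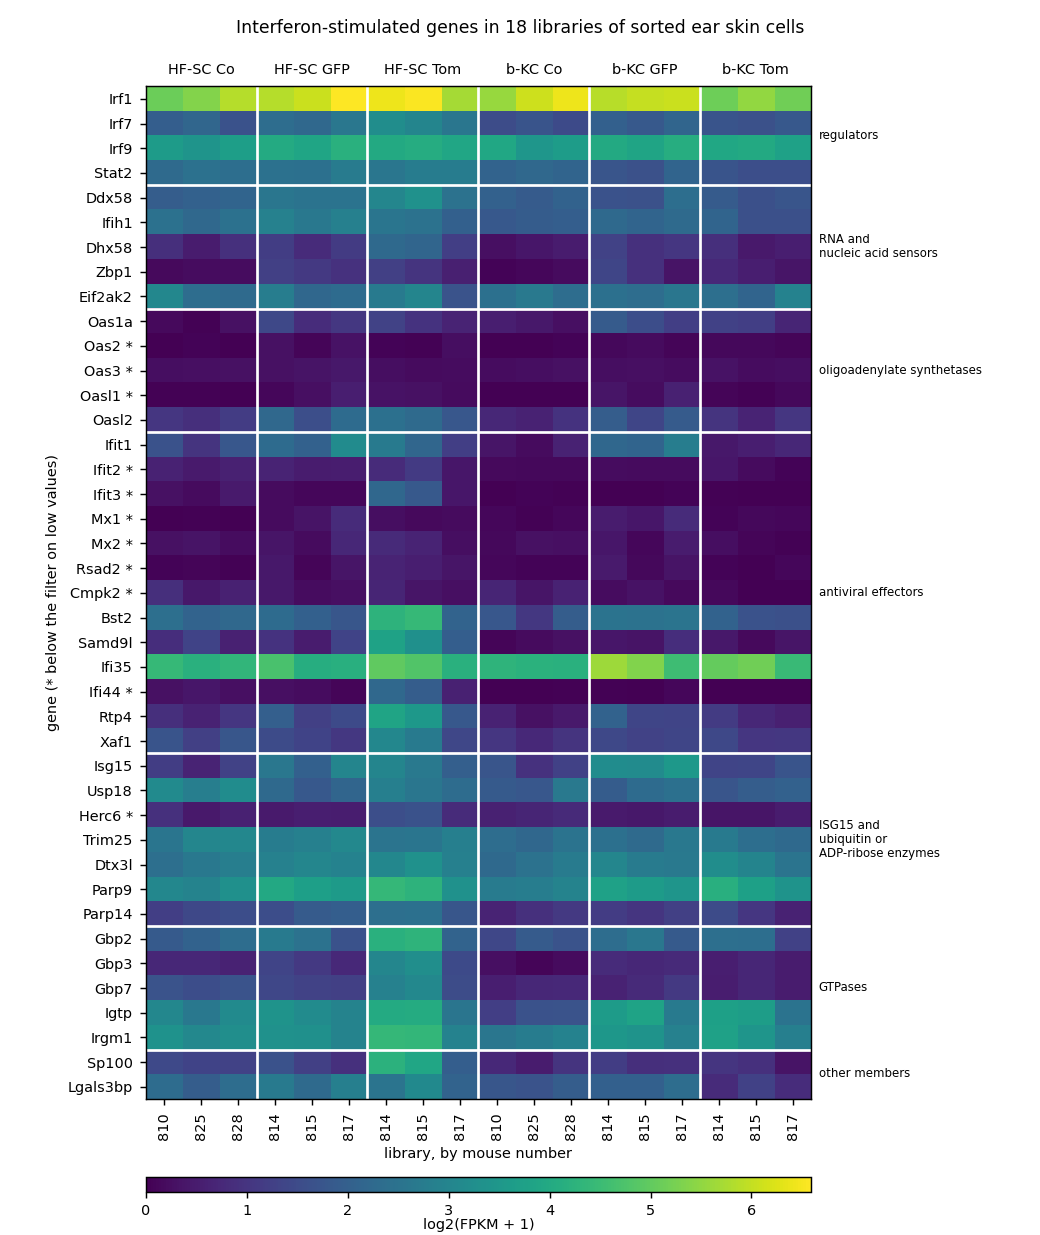
Level of the 41 genes as log2(FPKM + 1) (colour) in 18 libraries (columns, by group and mouse number), with genes in rows by role and an asterisk at the 11 below the filter. The libraries of HF-SC Tom from mice 814 and 815 are brighter than that of mouse 817 for Bst2, Samd9l, Rtp4, Gbp2, Gbp3 and Sp100.

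Against Co, interferon-stimulated genes were called mostly upward, in the largest number in HF-SC Tom. Calls were made where limma gave an adjusted p under 0.05 on log2(FPKM + 1), with Benjamini-Hochberg adjustment over all 12751 genes, a scale that understates the changes of low genes. In HF-SC Tom, 19 of 30 members (63.3%) were called higher, beside 22.3% of all genes, and 0 were called lower, beside 22.1%, with 0 also at an unadjusted p under 0.05. Of these 19, Samd9l and Gbp3 had passed the filter on low values only through HF-SC Tom. In HF-SC GFP, 9 members (30.0%) were called higher, beside 18.5% of all genes, and 1 lower, beside 20.0%. In b-KC GFP, 10 members (33.3%) were called higher, beside 20.3%, and 0 lower, beside 21.3%, with 1 lower at an unadjusted p under 0.05. In b-KC Tom, 3 members were called higher and 3 lower, 10.0% each, beside 22.6% and 23.3% of all genes, shares below those of genes at large. The median log2 fold change of the 30 members was 0.80 for HF-SC Tom and 0.35 for HF-SC GFP, then 0.43 for b-KC GFP and 0.17 for b-KC Tom, while that of all genes lay between -0.05 and -0.02.

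**Figure D2:**
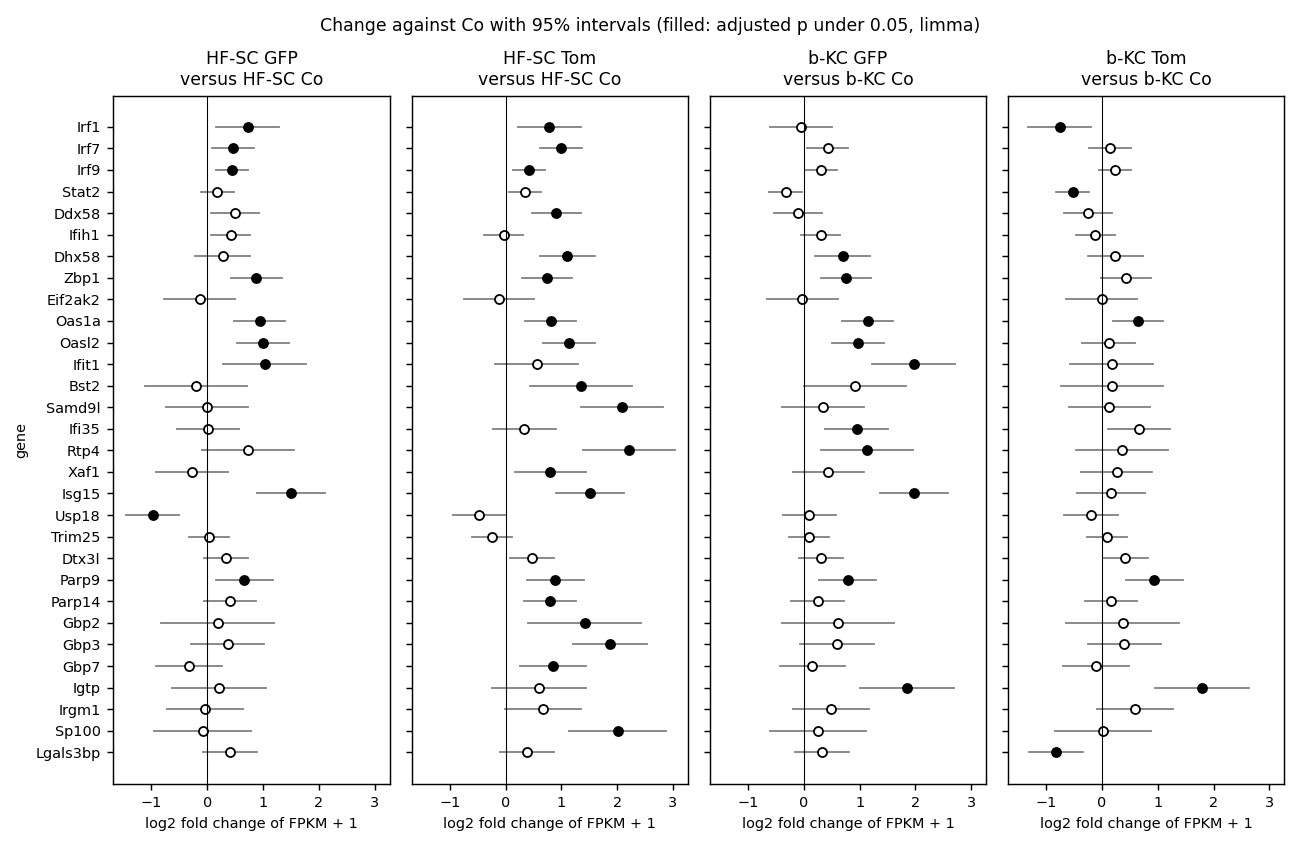
Log2 fold change of FPKM + 1 against Co (x axis) of the 30 tested members (rows) in 4 comparisons, with 95% intervals and filled points at an adjusted p under 0.05. Isg15 lies at 1.50 and 1.51 in the HF-SC fractions, at 1.98 in b-KC GFP and at 0.16 in b-KC Tom.

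The counts of members called changed when single mice were left out. For these fits, here and below, the share of all genes called was not taken. A change shared by all genes can therefore not be told apart from one of the members. In HF-SC GFP, leaving out mouse 810, 814 or 825 left 6 members called in each case in place of 10. In HF-SC Tom the count fell from 19 to 10 without mouse 815, and 4 remained without the libraries of HF-SC Tom from mice 814 and 815, a setting chosen after seeing the data that leaves 1 library and takes its spread from the other groups. In b-KC GFP, 6 members were called without mouse 814, 5 without mouse 815 and 16 without mouse 817, and in b-KC Tom 12 were called without mouse 817 in place of 6. Whether a single gene kept its call was examined in 12 alternatives (another pseudocount, no filter, the compared groups alone, no trend, rescaled libraries, mouse as a random block, and each of 6 mice left out).

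Isg15 encodes a ubiquitin-like protein that is attached to other proteins during the interferon response (chromosome 4, 155573533 to 155574927, NCBIM37). It lay at 1.29, 0.567 and 1.47 FPKM in the HF-SCs of controls, 5.16, 3.07 and 7.07 in GFP cells and 7.04, 5.38 and 2.98 in Tom cells. The b-KC libraries lay at 2.34, 0.935 and 1.43 FPKM for Co, 8.29, 7.99 and 10.4 for GFP and 1.56, 1.61 and 2.27 for Tom. Both HF-SC fractions and b-KC GFP thus lay above their Co libraries without overlap, whereas b-KC Tom lay within the range of b-KC Co. The log2 fold change was 1.50 (SE 0.29, adjusted p = 0.000722, limma) in HF-SC GFP, 1.51 (SE 0.29, adjusted p = 0.00058, limma) in HF-SC Tom and 1.98 (SE 0.29, adjusted p = 0.000128, limma) in b-KC GFP. In b-KC Tom it was 0.16 (95% interval -0.45 to 0.77), which did not pass the test.
Ifit1, a protein that binds viral RNA lacking the cap of host messengers (chromosome 19, 34715361 to 34724499), had 0.294, 0.151 and 0.538 FPKM in b-KC Co, 3.58, 3.35 and 5.88 in b-KC GFP and 0.34, 0.48 and 0.651 in b-KC Tom. The GFP libraries stood clear of both other b-KC groups, with a log2 fold change against Co of 1.97 (SE 0.35, adjusted p = 0.000556, limma). In HF-SCs, Ifit1 showed 2.16, 0.994 and 2.43 FPKM in control cells, 3.92, 3.10 and 8.10 in the GFP fraction and 5.59, 3.49 and 1.32 in the Tom fraction. HF-SC GFP did not overlap HF-SC Co, HF-SC Tom did, and the log2 fold changes were 1.03 (SE 0.35, adjusted p = 0.0284, limma) and 0.56 (95% interval -0.18 to 1.30). The call in HF-SC GFP was lost without mouse 810 and without mouse 825, with adjusted p-values up to 0.141 over the alternatives.

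**Figure D3:**
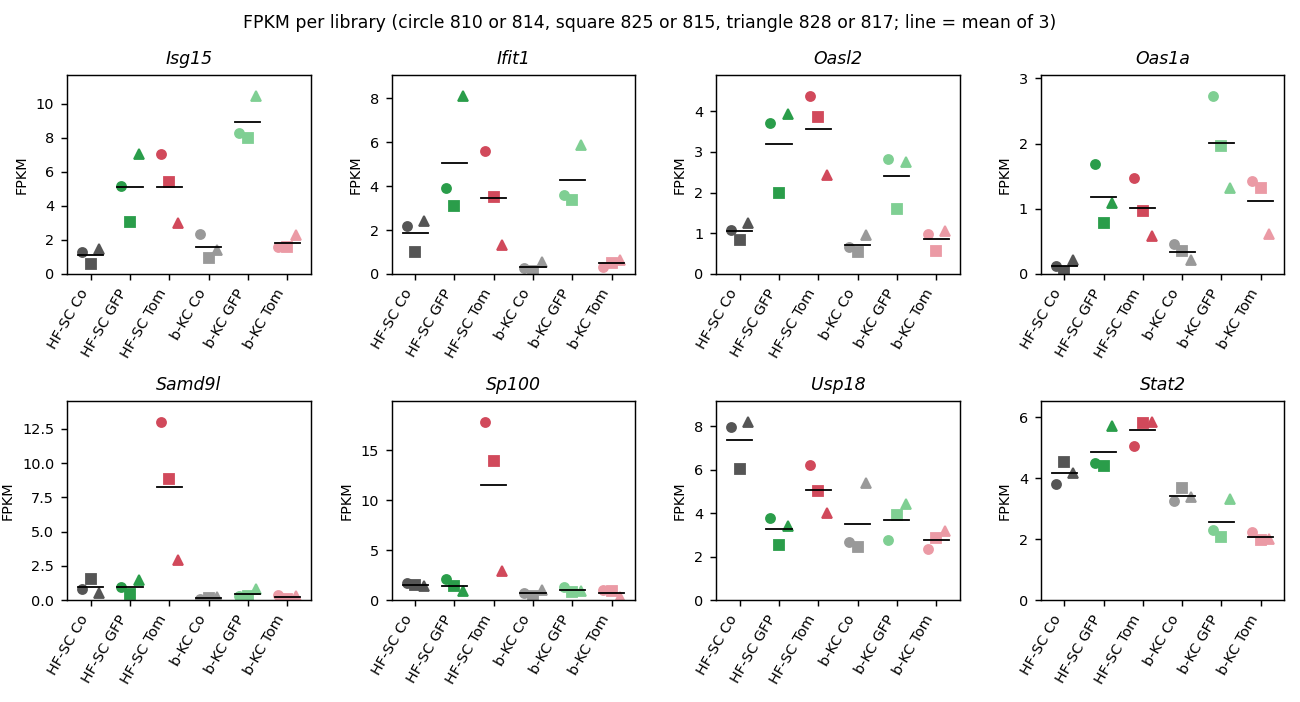
FPKM (y axis) of 8 members in the 6 groups, with 1 point per library, marker shape by mouse and a line at the mean of 3. Isg15 and Ifit1 are high in b-KC GFP and low in b-KC Tom, and Samd9l and Sp100 are high in HF-SC Tom of mice 814 and 815.

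The oligoadenylate synthetases make the messenger that activates RNase L. Oas1a (chromosome 5, 121346265 to 121357536) showed 0.129, 0.0284 and 0.217 FPKM for HF-SC Co, 1.69, 0.78 and 1.09 for HF-SC GFP and 1.47, 0.967 and 0.575 for HF-SC Tom. In b-KCs, Oas1a ranged over 0.456, 0.351 and 0.208 FPKM for Co, 2.73, 1.96 and 1.32 for GFP and 1.42, 1.32 and 0.615 for Tom. Each DKO* library lay above each Co library of its cell type, at log2 fold changes of 0.94 (SE 0.21) and 0.81 (SE 0.21) for GFP and Tom of HF-SCs and of 1.14 (SE 0.21) and 0.64 (SE 0.21) for GFP and Tom of b-KCs, with adjusted p-values (limma) of 0.00275, 0.00636, 0.000843 and 0.0227. The call in b-KC Tom was lost without mouse 815, 825 or 828, with adjusted p-values from 0.00138 to 0.122 over the alternatives.
Oasl2, an oligoadenylate synthetase-like protein (chromosome 5, 115346943 to 115362243), measured 1.07, 0.836 and 1.26 FPKM in control HF-SCs, 3.70, 1.98 and 3.93 in the GFP fraction and 4.38, 3.87 and 2.44 in the Tom fraction. For b-KCs the gene measured 0.659, 0.549 and 0.953 FPKM in controls, 2.84, 1.61 and 2.74 in GFP cells and 0.993, 0.566 and 1.05 in Tom cells. Its log2 fold change was 1.00 (SE 0.22, adjusted p = 0.00208, limma) in HF-SC GFP, 1.13 (SE 0.22, adjusted p = 0.00069, limma) in HF-SC Tom and 0.97 (SE 0.22, adjusted p = 0.00307, limma) in b-KC GFP, and 0.12 (95% interval -0.35 to 0.58) in b-KC Tom, whose libraries overlapped Co. Oas2, Oas3 and Oasl1 stayed at or below 0.509 FPKM in every library.

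Within HF-SC Tom, the largest changes against Co on log2(FPKM + 1) among the tested members were those of Rtp4, Samd9l, Sp100 and Gbp3. Samd9l and Gbp3 passed the filter on low values only through the HF-SC Tom libraries, so their values there are a description. Samd9l, a restriction factor that limits translation (chromosome 6, 3322257 to 3349571), lay at 0.824, 1.53 and 0.531 FPKM in the HF-SCs of controls, 0.958, 0.427 and 1.50 in GFP cells and 13.0, 8.85 and 2.94 in Tom cells. Its b-KC libraries gave 0.0647, 0.149 and 0.221 FPKM for Co, 0.323, 0.281 and 0.803 for GFP and 0.354, 0.124 and 0.294 for Tom, with no call. The log2 fold change against Co in HF-SC Tom was 2.09, given without a test, and HF-SC GFP overlapped Co with -0.005 (95% interval -0.74 to 0.73).
Sp100, a component of nuclear bodies (chromosome 1, 87546563 to 87606573), showed 1.74, 1.51 and 1.45 FPKM for HF-SC Co, 2.14, 1.39 and 0.897 for HF-SC GFP and 17.8, 13.9 and 2.93 for HF-SC Tom. The libraries of HF-SC Tom from mice 814 and 815 stood far above that of mouse 817, which was still above each Co library. The log2 fold change in HF-SC Tom was 2.01 (SE 0.41, adjusted p = 0.000965, limma). In b-KCs Sp100 lay at 0.679, 0.409 and 0.999 FPKM for Co, 1.29, 0.856 and 0.894 for GFP and 1.01, 0.893 and 0.281 for Tom, with overlapping groups.
Gbp3, a guanylate-binding protein of cell-autonomous defence (chromosome 3, 142223016 to 142236173), measured 0.675, 0.675 and 0.56 FPKM in control HF-SCs, 1.57, 1.15 and 0.688 in the GFP fraction and 7.15, 8.50 and 1.80 in the Tom fraction, a log2 fold change in Tom of 1.88, also given without a test. Rtp4, a chaperone of membrane receptors that interferon induces (chromosome 16, 23610005 to 23614308), lay at 0.837, 0.544 and 1.04 FPKM in the HF-SCs of controls, 2.96, 1.39 and 1.79 in GFP cells and 13.5, 10.4 and 2.52 in Tom cells, a log2 fold change in Tom of 2.22 (SE 0.39, adjusted p = 0.000288, limma). Each HF-SC Tom library lay above each Co library for both genes, and mouse 817 was the lowest of the 3. For b-KCs, Gbp3 gave 0.212, 0.0679 and 0.151 FPKM for Co, 0.758, 0.671 and 0.737 for GFP and 0.471, 0.64 and 0.421 for Tom. Both b-KC fractions lay above Co without overlap, at changes that did not pass, 0.59 (95% interval -0.07 to 1.25) for GFP and 0.40 (95% interval -0.26 to 1.06) for Tom. In b-KC GFP, Rtp4 had 3.18, 1.62 and 1.55 FPKM beside 0.548, 0.225 and 0.374 in Co and 1.23, 0.677 and 0.482 in b-KC Tom, and GFP against Co gave a log2 fold change of 1.14 (SE 0.39, adjusted p = 0.028, limma) that did not pass when any of mice 810, 814, 815, 825 or 828 was left out (adjusted p up to 0.0958 over the alternatives).
Endothelial markers followed the same libraries. Pecam1 showed 10.6, 12.9 and 8.62 FPKM for HF-SC Co, 3.57, 4.52 and 0.547 for HF-SC GFP and 209, 234 and 66.3 for HF-SC Tom, and at most 0.881 in b-KCs. In HF-SC Tom, 10 of 10 endothelial markers were called higher than in Co, beside 22.3% of all genes. In HF-SC GFP 9 of 10 were called lower, beside 20.0%. Cdh5 and Kdr passed the filter on low values only through HF-SC Tom, so their calls there were partly set by the filter. None of the 10 was at 0 in an HF-SC library. Without the libraries of HF-SC Tom from mice 814 and 815, where these markers were highest, Rtp4 (log2 fold change 0.97) and Irf7 (0.64) were called against Co, as were Samd9l (1.04) and Gbp3 (0.78), which had passed the filter only through HF-SC Tom. The part of the endothelial signal in the HF-SC Tom values was not tested.

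**Figure D4:**
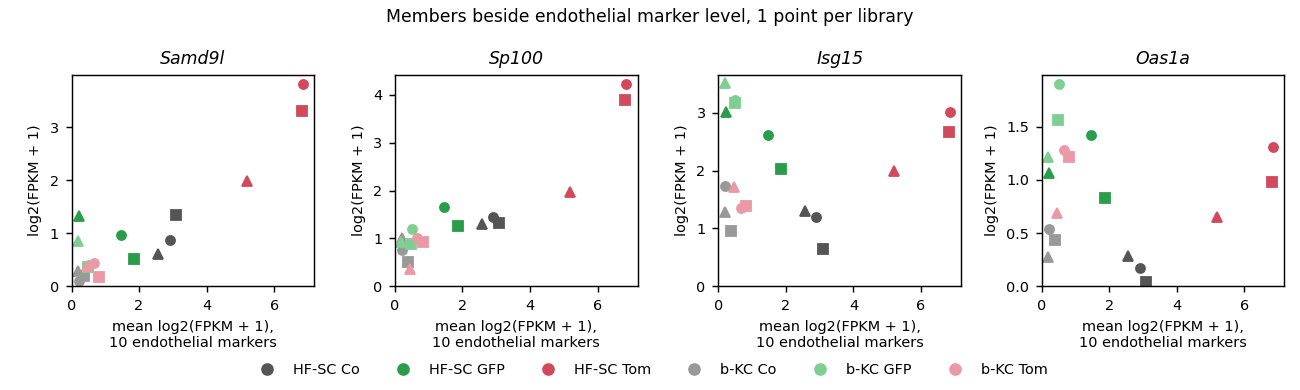
Level of 4 members as log2(FPKM + 1) (y axis) beside the mean log2(FPKM + 1) of 10 endothelial markers (x axis), with 1 point per library, colour by group and marker shape by mouse. The libraries of HF-SC Tom from mice 814 and 815 lie at the upper right for Samd9l and Sp100, whereas for Isg15 and Oas1a the b-KC GFP libraries lie high at a mean marker level of at most 0.504.

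Bst2, which tethers virus particles to the cell, Gbp2, Gbp7 and Xaf1, a partner of a cell death inhibitor, showed the same split between mice. Bst2 had 18.2, 20.5 and 3.29 FPKM in HF-SC Tom beside 4.33, 3.28 and 3.64 in HF-SC Co, and Gbp2 had 17.0, 18.4 and 3.25 beside 2.66, 3.18 and 4.13. They were called in HF-SC Tom at log2 fold changes of 1.36 (SE 0.43) for Bst2 (adjusted p = 0.0186, limma), 1.42 (SE 0.47) for Gbp2 (0.0243), 0.85 (SE 0.28) for Gbp7 (0.0212) and 0.80 (SE 0.30) for Xaf1 (0.0415). Mouse 817 lay within the range of Co for Bst2, Gbp2 and Xaf1 and below it for Gbp7. Without mouse 815 none of the 4 was called, and without both mouse 814 and 815 libraries of HF-SC Tom the 4 values were -0.14, -0.01, -0.12 and -0.18.

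Among the regulators, Irf7, the factor that amplifies type I interferon, measured 2.94, 3.56 and 2.14 FPKM in control HF-SCs, 4.10, 3.71 and 5.12 in the GFP fraction and 8.41, 6.98 and 4.99 in the Tom fraction (chromosome 7, 148448605 to 148452380). Among b-KCs it showed 1.89, 2.29 and 1.80 FPKM in control cells, 3.08, 2.56 and 3.45 in the GFP fraction and 2.28, 2.10 and 2.53 in the Tom fraction. It rose in HF-SC Tom at a log2 fold change of 1.00 (SE 0.18, adjusted p = 0.000312, limma). The call in HF-SC GFP, at 0.46 (SE 0.18, adjusted p = 0.0495, limma), was lost in 8 of 12 alternatives, among them each of mice 810, 814, 815, 817 and 828 left out and the mouse as a random block, with adjusted p-values up to 0.245. In b-KC GFP each library lay above each Co library, but the change of 0.43 (95% interval 0.05 to 0.80) did not pass (adjusted p = 0.0635, limma).
Irf9, the DNA-binding partner of Stat2, lay at 11.4, 9.70 and 11.9 FPKM in the HF-SCs of controls, 15.2, 13.6 and 17.3 in GFP cells and 15.2, 15.8 and 14.02 in Tom cells. Each DKO* library was above each Co library, and the log2 fold changes were 0.45 (SE 0.13, adjusted p = 0.0154, limma) in HF-SC GFP and 0.42 (SE 0.13, adjusted p = 0.0192, limma) in HF-SC Tom. Leaving out mouse 814 or mouse 825 ended either call, and leaving out mouse 815 ended that in HF-SC Tom, with adjusted p-values up to 0.0907. In b-KCs, Irf9 measured 14.1, 10.1 and 11.4 FPKM in controls, 15.0, 13.4 and 16.1 in GFP cells and 14.2, 15.1 and 12.8 in Tom cells, with no call.
Stat2, the signal carrier of type I interferon, showed 3.82, 4.53 and 4.17 FPKM for HF-SC Co, 4.50, 4.42 and 5.72 for HF-SC GFP and 5.06, 5.83 and 5.84 for HF-SC Tom. In b-KCs it lay at 3.25, 3.67 and 3.38 FPKM for Co, 2.31, 2.09 and 3.33 for GFP and 2.25, 1.98 and 2 for Tom. The b-KC Tom libraries lay below Co without overlap, at a log2 fold change of -0.53 (SE 0.14, adjusted p = 0.00571, limma), and the call held in each of 12 alternatives. In b-KC GFP, where mouse 817 overlapped Co, the change was -0.32 (95% interval -0.61 to -0.03).
Irf1 measured 33.4, 40.2 and 57.0 FPKM in control HF-SCs, 56.8, 65.4 and 95.4 in the GFP fraction and 84.9, 93.1 and 50.9 in the Tom fraction. The b-KC libraries showed 46.6, 67.5 and 85.6 FPKM in control cells, 58.3, 63.6 and 65.3 in the GFP fraction and 34.5, 45.0 and 34.8 in the Tom fraction. Each of these groups overlapped its Co group in HF-SCs, and b-KC Tom lay below each other b-KC library. Irf1 was called higher in both HF-SC fractions, with 0.72 (SE 0.26, adjusted p = 0.0409, limma) in GFP and 0.78 (SE 0.26, adjusted p = 0.0255, limma) in Tom, and lower in b-KC Tom, with -0.76 (SE 0.26, adjusted p = 0.0286, limma). The call in HF-SC GFP was lost without mouse 810, 814, 815, 817 or 825, that in HF-SC Tom without mouse 810, 814, 815 or 825, and that in b-KC Tom without mouse 814, 815, 825 or 828.

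The sensors of viral nucleic acid moved unequally. Zbp1, which binds nucleic acid in the Z form, was near 0 in Co, at 0.125, 0.156 and 0.174 FPKM in HF-SCs and 0.0434, 0.0889 and 0.148 in b-KCs. In DKO* mice it gave 1.36, 1.13 and 0.902 FPKM for HF-SC GFP, 1.37, 1.00 and 0.495 for HF-SC Tom, 1.59, 0.894 and 0.269 for b-KC GFP and 0.678, 0.47 and 0.298 for b-KC Tom. All DKO* libraries were above all Co libraries, and the log2 fold changes that passed were 0.88 (SE 0.21, adjusted p = 0.00414, limma) in HF-SC GFP, 0.74 (SE 0.21, adjusted p = 0.0109, limma) in HF-SC Tom and 0.75 (SE 0.21, adjusted p = 0.0113, limma) in b-KC GFP. The call in HF-SC Tom was lost without mouse 815, and that in b-KC GFP without mouse 814 or 815.
Ddx58 (RIG-I) lay at 2.84, 3.15 and 3.36 FPKM in the HF-SCs of controls, 5.00, 4.72 and 4.74 in GFP cells and 7.19, 9.03 and 4.64 in Tom cells. Both HF-SC fractions lay above Co without overlap. The change in Tom was 0.91 (SE 0.20, adjusted p = 0.00214, limma), and that in GFP, 0.50 (95% interval 0.07 to 0.94), did not pass (adjusted p = 0.0648, limma). In b-KCs Ddx58 measured 3.12, 2.70 and 3.21 FPKM in controls, 2.16, 2.12 and 4.22 in GFP cells and 2.68, 2.06 and 2.36 in Tom cells. Dhx58 (LGP2), which modulates RIG-I and MDA5, went from 0.849, 0.422 and 0.868 FPKM in control HF-SCs to 1.28, 0.741 and 1.20 in the GFP fraction and 3.76, 3.47 and 1.32 in the Tom fraction, a log2 fold change in Tom of 1.11 (SE 0.23, adjusted p = 0.0012, limma). In b-KC GFP it had 1.47, 0.869 and 1.05 FPKM beside 0.197, 0.33 and 0.406 in Co and 0.841, 0.357 and 0.461 in b-KC Tom, and GFP against Co stood at 0.69 (SE 0.23, adjusted p = 0.0254, limma), a call lost when any 1 of 5 mice (810, 814, 815, 825 or 828) was left out. Ifih1 (MDA5) and Eif2ak2 (PKR), which halts translation on double-stranded RNA, were not called in any comparison with Co, with log2 fold changes from -0.14 to 0.42.

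Usp18 went against the list. It encodes the protease that removes ISG15 and that also restrains the type I interferon receptor. It reached 7.96, 6.01 and 8.18 FPKM in control HF-SCs, 3.79, 2.55 and 3.42 in GFP cells and 6.21, 5.00 and 4.03 in Tom cells. Each GFP library was below each Co library, with a log2 fold change of -0.98 (SE 0.23, adjusted p = 0.00293, limma), and the call held in each of 12 alternatives. In b-KCs, Usp18 lay at 2.68, 2.47 and 5.39 FPKM for Co, 2.77, 3.92 and 4.41 for GFP and 2.34, 2.86 and 3.17 for Tom, with overlapping groups. Lgals3bp, a secreted glycoprotein that binds galectin 3, had 2.42, 2.22 and 2.83 FPKM in b-KC Co, 3.06, 3.06 and 4.08 in b-KC GFP and 0.762, 1.43 and 0.792 in b-KC Tom. It fell in b-KC Tom, with a log2 fold change of -0.82 (SE 0.23, adjusted p = 0.00863, limma), a call lost without mouse 814 (adjusted p up to 0.0589 over the alternatives). In HF-SCs it showed 4.07, 2.81 and 4.09 FPKM in control cells, 5.54, 3.87 and 6.19 in the GFP fraction and 4.85, 7.67 and 3.31 in the Tom fraction, with no call.
Of the enzymes that act with ISG15, ubiquitin or ADP-ribose, Parp9, the partner of the ligase Dtx3l, rose in all 4 DKO* groups. It showed 7.29, 6.73 and 8.92 FPKM for HF-SC Co, 14.9, 12.2 and 11.1 for HF-SC GFP and 20.0, 18.1 and 9.10 for HF-SC Tom, and 5.66, 5.96 and 6.71 in b-KC Co, 12.6, 11.4 and 9.88 in b-KC GFP and 17.0, 12.3 and 9.53 in b-KC Tom. The log2 fold changes were 0.66 (SE 0.24, adjusted p = 0.0388, limma), 0.89 (SE 0.24, adjusted p = 0.00728, limma), 0.79 (SE 0.24, adjusted p = 0.0166, limma) and 0.94 (SE 0.24, adjusted p = 0.00512, limma) in that order. The call held in each of 12 alternatives in b-KC Tom, in 10 in HF-SC Tom, in 9 in b-KC GFP and in 6 in HF-SC GFP. Dtx3l overlaps Parp9 by 682 bases on the other strand, so reads there cannot be assigned, and it was not called in any of the 4 comparisons. Parp14, an ADP-ribose transferase, was called only in HF-SC Tom, at 0.80 (SE 0.22, adjusted p = 0.00842, limma), and not without mouse 815. Trim25, a ubiquitin ligase that acts on RIG-I, had log2 fold changes from -0.24 to 0.09 and was not called.
Igtp and Irgm1 are immunity-related GTPases. Igtp had 1.34, 2.14 and 2.204 FPKM in b-KC Co, 11.2, 13.1 and 5.53 in b-KC GFP and 12.4, 11.7 and 4.72 in b-KC Tom. Each DKO* library exceeded each Co library, at log2 fold changes of 1.86 (SE 0.40, adjusted p = 0.00207, limma) in GFP and 1.79 (SE 0.40, adjusted p = 0.00199, limma) in Tom, and both calls held in each of 12 alternatives. In HF-SCs Igtp measured 7.35, 5.27 and 7.95 FPKM in controls, 9.41, 7.99 and 6.70 in GFP cells and 15.3, 15.8 and 4.87 in Tom cells, with no call. Irgm1 was not called against Co, and its HF-SC Tom values were 20.1, 19.7 and 6.63 FPKM beside 9.24, 7.50 and 8.53 in Co. Ifi35 rose in b-KC GFP, from 18.5, 17.3 and 17.3 to 48.4, 39.7 and 22.3 FPKM at 0.95 (SE 0.26, adjusted p = 0.0103, limma), a call lost without mouse 814 or 815.

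The mutant and non-mutant fractions of the same mice were then set against each other. In HF-SCs, 0 members were called higher in GFP than in Tom, beside 2.83% of all genes (limma, 1 at an unadjusted p under 0.05), and 8 (26.7%) were called lower, beside 5.80%. These were Samd9l, Sp100, Gbp3, Gbp7, Rtp4, Bst2, Dhx58 and Xaf1, with log2 fold changes from -2.09 for Samd9l to -0.83 for Dhx58. Samd9l and Gbp3 are among the 8 through a filter that only HF-SC Tom let them pass. When these groups were fitted by themselves with mouse as a fixed block, 0 members were called higher, beside 1.16% of all genes. Sp100 remained called as lower, and so did Gbp3, again through that filter, beside 3.77%. The same groups without the block gave 0 (limma, 10 lower at an unadjusted p under 0.05), beside 0.486% of all genes higher and 2.45% lower. Without mouse 814 the count was 2, without mouse 815 it was 0 (5 lower at an unadjusted p under 0.05) and without mouse 817 it was 14. Without the libraries of HF-SC Tom from mice 814 and 815, 0 of the 8 were called, and Ifih1 was called higher in GFP. All 10 endothelial markers, among them Cdh5 and Kdr through the filter, were called lower in the GFP fraction, beside 5.80% of all genes.
In b-KCs, 3 members (10.0%) were called higher in GFP than in Tom, beside 1.19% of all genes, and 0 lower, beside 0.518%, with 0 also at an unadjusted p under 0.05. These were Isg15 at 1.82 (SE 0.29, adjusted p = 0.00369, limma), Ifit1 at 1.80 (SE 0.35, adjusted p = 0.0154, limma) and Lgals3bp at 1.15 (SE 0.23, adjusted p = 0.0171, limma). For each of the 3, every GFP library lay above every Tom library. When these groups were fitted by themselves with mouse as a fixed block, 7 members were called higher, namely these 3 and Oasl2, Dhx58, Irf1 and Rtp4, beside 2.91% of all genes, and 0 lower, beside 0.808%. The same groups without the block gave 0 (limma, 9 higher at an unadjusted p under 0.05), beside 0.00784% of all genes higher and 0.0157% lower. Without mouse 814 or without mouse 815 none was called (5 at an unadjusted p under 0.05 each). Endothelial marker sums were 1.73 to 6.93 FPKM in b-KC GFP and 5.36 to 10.4 in b-KC Tom, and 0 of 10 markers were called between these fractions by limma.

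Between the control cells, 6 members (20.0%) were called higher in HF-SC Co than in b-KC Co, beside 24.6% of all genes, and 0 lower, beside 27.3%, with 1 lower at an unadjusted p under 0.05. Both shares lie below those of all genes. The 6 were Igtp (1.44), Ifit1 (1.08), Gbp7 (0.96), Usp18 (0.94), Trim25 (0.52) and Ifih1 (0.47), given as log2 fold changes. When both Co groups were fitted by themselves with mouse as a fixed block, 19 members were called, 18 higher in HF-SCs, beside 30.8% of all genes, and Irf1 lower, beside 36.1%. Without the block these groups alone gave 16, all higher in HF-SCs, beside 29.5%, and 0 lower, beside 34.1%. The share of members called higher was therefore below that of all genes in the fit of all groups and above it in the fits of the Co groups alone. Without mouse 810 the count was 2, and without mouse 828 it was 3. Endothelial markers were called higher in HF-SC Co for 10 of 10 genes, beside 24.6% of all genes, and their part was not tested.
The changes themselves were compared between cell types by an interaction term, the signed log2 change in HF-SCs minus that in b-KCs. For Co to GFP, 0 members were called with a positive difference, beside 7.31% of all genes (1 at an unadjusted p under 0.05, limma), and 1 with a negative one, Usp18, beside 5.22%, which changed by -0.98 in HF-SCs and 0.10 in b-KCs. With the mouse as a random block, 4 members were called, namely Usp18, Igtp and Ifi35 with a negative difference, beside 10.5% of all genes, and Stat2 with a positive one, beside 12.1%. Without mouse 810, 815 or 825 none was called (3, 2 and 4 members at an unadjusted p under 0.05), and without mouse 817 there were 8. For Co to Tom, 11 members (36.7%) were called with a positive difference, beside 10.3% of all genes, and 0 with a negative one, beside 5.58%, with 1 at an unadjusted p under 0.05. They were Stat2, Irf1, Ddx58, Samd9l, Lgals3bp, Sp100, Irf7, Rtp4, Gbp3, Isg15 and Oasl2, of which Samd9l and Gbp3 were in the fit only because of their HF-SC Tom levels. The positive sign came about in different ways, since Stat2 and Lgals3bp changed by -0.53 and -0.82 in b-KCs beside 0.35 and 0.38 in HF-SCs, and Irf1 by -0.76 beside 0.78, while the b-KC changes of the other 8 lay between -0.25 and 0.40. The count was 1 to 3 without any 1 of mice 810, 814, 815, 825 and 828, and 17 without mouse 817. Without the libraries of HF-SC Tom from mice 814 and 815 it was 2, Stat2 (positive) and Igtp (negative).

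The interferon genes with a row were at or near 0. Of these 19, 14 were listed at 0 in all 18 libraries, among them Ifng and Ifne. Il28a and Il28b, which encode type III interferons, had no row and so were not measured. Ifnb1 was above 0 in 5 libraries at 0.0546 to 0.131 FPKM, which amounts to 1 or 2 reads each. Ifnk, the interferon of keratinocytes, had 0.105, 0.162 and 0.239 FPKM in b-KC Co, 0, 0 and 0 in b-KC GFP and 0, 0.124 and 0.0616 in b-KC Tom, at most about 4 reads. Ifna11 and Ifna13 were above 0 in 1 and 2 libraries and Ifnz in 1. These counts were too low to test, and a difference in interferon transcripts was not detectable at this depth.
Of 5 receptor chains tested, 3 and 4 were called higher in GFP and Tom of HF-SCs and 2 each in GFP and Tom of b-KCs, with 0 lower by limma, beside 18.5% to 22.6% of all genes called higher. Ifngr1, the ligand-binding chain for interferon gamma, measured 37.7, 36.3 and 33.5 FPKM in control HF-SCs, 105, 95.01 and 103 in the GFP fraction and 112, 106 and 87.3 in the Tom fraction, changes of 1.47 (SE 0.14, adjusted p = 9.76e-07, limma) and 1.47 (SE 0.14, adjusted p = 7.24e-07, limma). For b-KCs the gene lay at 136, 141 and 166 FPKM for Co, 118, 114 and 155 for GFP and 167, 144 and 164 for Tom, with no call. Ifnar2, a chain of the type I receptor, rose in HF-SC Tom (1.26), b-KC GFP (1.21) and b-KC Tom (1.17) on the log2 scale. Ifngr2 rose in both HF-SC fractions (1.20 in GFP, 1.15 in Tom), and Il10rb, shared with the type III receptor, in all 4 groups (0.69 to 1.16). Il28ra, the other chain of the type III receptor, had no row.
Of the kinases Jak1, Jak2 and Tyk2, Jak1 rose in both HF-SC fractions (0.38 for GFP and 0.52 for Tom). All 3 fell in b-KC GFP (-0.35, -0.67 and -0.58), and in b-KC Tom (-0.36, -0.50 and -0.55). Of 6 brakes on the pathway, 1 was called higher in each DKO* group, Socs1, at log2 fold changes of 0.86 (GFP) and 0.90 (Tom) in HF-SCs and of 1.30 (GFP) and 1.19 (Tom) in b-KCs. Ptpn6 and Pias1 were called lower in all 4 groups, and Socs3 and Cish in both b-KC fractions, with Ptpn6 between -1.19 and -0.82. That is 1 of 6 higher (beside 18.5% to 22.6% of all genes) and 2, 2, 4 and 4 of 6 lower (beside 20.0% to 23.3%) for GFP and Tom of HF-SCs, then GFP and Tom of b-KCs.
Of 10 tested genes of the sensing pathway upstream of interferon, 6 were called higher and 1 lower in HF-SC GFP, 5 and 1 in HF-SC Tom, 2 and 0 in b-KC GFP (limma) and 1 and 1 in b-KC Tom. Of all genes, 18.5% to 22.6% were called higher and 20.0% to 23.3% lower in these comparisons, so the b-KC counts are at or below that share. Tmem173 (STING), the adaptor for cytosolic DNA, lay at 2.002, 2.17 and 1.91 FPKM in the HF-SCs of controls, 22.6, 14.6 and 19.9 in GFP cells and 33.3, 33.1 and 14.4 in Tom cells. Among b-KCs it showed 0.374, 0.379 and 0.664 FPKM in control cells, 31.2, 26.5 and 20.3 in the GFP fraction and 16.2, 14.9 and 12.4 in the Tom fraction. All DKO* libraries lay far above Co, at log2 fold changes of 2.71 (SE 0.26, adjusted p = 1.17e-06, limma), 3.12 (SE 0.26, adjusted p = 2.30e-07, limma), 4.18 (SE 0.26, adjusted p = 8.85e-08, limma) and 3.39 (SE 0.26, adjusted p = 2.77e-07, limma) in that order. Irf5 rose in HF-SC GFP (1.38) and HF-SC Tom (0.90) and fell in b-KC Tom (-0.74), and Myd88, the adaptor of most Toll-like receptors, rose in HF-SC GFP (1.24), HF-SC Tom (0.83) and b-KC GFP (0.78).
Of 33 tested genes in a second list of interferon-induced genes, 9 were called higher in HF-SC GFP (beside 18.5% of all genes) and 7 lower (20.0%). In HF-SC Tom the counts were 14 and 1 (22.3% and 22.1%), in b-KC GFP 9 and 4 (20.3% and 21.3%). They were 7 and 6 in b-KC Tom (22.6% and 23.3%). Uba7, Gbp4 and Ifi47 passed the filter on low values only through HF-SC Tom, and Ifitm1 only through HF-SC GFP. The counts in these groups were thus partly set by the filter. In b-KC Tom both counts, and in every group the count of lower genes, are near or below the shares of all genes. Ifitm3, which blocks viral entry, ran at 181, 117 and 129.6 FPKM in control HF-SCs, 1097, 765 and 737 in GFP cells and 1436, 1308 and 627 in Tom cells, and at 385, 313 and 344 in control b-KCs, 2031, 2020.0 and 1656 in GFP cells and 1382, 1854 and 1619 in Tom cells. Its log2 fold changes, in the order of GFP and Tom in HF-SCs and then b-KCs, were 2.60 (SE 0.28, adjusted p = 4.02e-06, limma), 2.91 (SE 0.28, adjusted p = 1.09e-06, limma), 2.45 (SE 0.28, adjusted p = 1.78e-05, limma) and 2.21 (SE 0.28, adjusted p = 2.37e-05, limma). Slfn2 rose in the 4 groups by 2.24, 3.34, 3.38 and 2.50 on the log2 scale. Iigp1, an immunity-related GTPase, showed 3.45, 3.46 and 2.86 FPKM for HF-SC Co, 0.948, 0.744 and 0.0429 for HF-SC GFP and 41.9, 50.9 and 6.25 for HF-SC Tom, falling in GFP (-1.48 (SE 0.50, adjusted p = 0.0296, limma)) and rising in Tom (2.57 (SE 0.50, adjusted p = 0.000741, limma)), as the endothelial markers did.
Of the leukocyte markers, Ptprc (CD45) was at most 0.946 FPKM and Cd3e at most 0.210, and Itgam did not pass the filter on low values without HF-SC GFP. The sum of 13 leukocyte markers was 6.14 to 7.67 FPKM in HF-SC Co, 10.6 to 31.6 in HF-SC GFP, 8.58 to 22.2 in HF-SC Tom, 2.04 to 2.25 in b-KC Co, 6.45 to 8.77 in b-KC GFP and 6.07 to 8 in b-KC Tom, and of 6 tested 3, 2, 4 and 1 were called higher in the 4 DKO* groups, beside 18.5%, 22.3%, 20.3% and 22.6% of all genes. Of the 7 Langerhans and dendritic cell markers, the class II genes Cd74, H2-Aa and H2-Ab1 were the 3 tested and were called higher in all 4 groups, at log2 fold changes from 3.89 to 5.95, while Cd207 was at most 1.07 FPKM and Flt3 at most 0.0230. Their summed level was 5.98 to 13.2 FPKM for HF-SC Co and 6.16 to 11.9 for b-KC Co, against 192 to 238 for HF-SC GFP, 143 to 351 for HF-SC Tom, 371 to 676 for b-KC GFP and 290.4 to 1353 for b-KC Tom. Summed neutrophil markers (9 genes) were 1.49 to 1.86 FPKM in both Co groups and 6.48 to 11.6 in the DKO* groups. Cxcr2, the only one tested, was called higher in all 4 DKO* groups. It made up most of each sum there, at 4.225 to 10.3 FPKM, while Mpo, Elane and Ngp stayed at or below 0.0983 FPKM. Summed melanocyte markers (5 genes) were 3.68 to 5.98 FPKM in HF-SC Co and 7.32 to 17.7 in HF-SC GFP, where 3 were called higher. Of these, Tyrp1 and Mlana did not pass the filter on low values without HF-SC GFP. Fibroblast markers (5 tested) gave 1 call against Co, Col1a2 lower in HF-SC Tom at -1.07. Their summed level (6 genes) was 45.9 to 95.5 FPKM for HF-SC Co, 19.4 to 120.5 for HF-SC GFP, 13.9 to 114.9 for HF-SC Tom and at most 6.16 in any b-KC library. Dcn (71.6, 64.5 and 3.40 FPKM) and Lum (10.3, 12.3 and 0.598) were high in HF-SC Tom of mice 814 and 815 and low in that of mouse 817. Both were also lowest in mouse 817 in HF-SC GFP, where endothelial markers were low (Dcn 48.33, 44.19 and 6.048, Lum 6.023, 9.813 and 1.115). In HF-SC Tom, Col1a2 (4.655, 11.01 and 7.073) was lowest in mouse 814. Col1a1 (1.917, 7.198 and 1.271), Col3a1 (6.356, 19.14 and 1.338) and Pdgfra (0.5812, 0.7256 and 0.2012) were highest there in mouse 815 and lowest in mouse 817. The part of these cells in the interferon-stimulated genes was not tested.

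The 11 members below the filter were examined without it. In that fit 3 were called higher (Mx1, Oas2 and Oasl1) and 1 lower (Cmpk2) in HF-SC GFP, 4 higher in HF-SC Tom (Herc6, Ifi44, Ifit3 and Rsad2), 2 higher in b-KC GFP (Mx1 and Oasl1) and 1 lower in b-KC Tom (Cmpk2). Over all 41 members, that fit called 8 higher and 2 lower in HF-SC GFP (beside 12.7% and 14.3% of all genes), 22 and 0 in HF-SC Tom (17.3% and 15.6%), 11 and 0 in b-KC GFP (12.9% and 13.5%) and 3 and 4 in b-KC Tom (14.3% and 15.6%). Mx1, a GTPase that blocks influenza virus, measured 0, 0.0198 and 0 FPKM in control HF-SCs, 0.149, 0.265 and 0.756 in the GFP fraction and 0.178, 0.123 and 0.153 in the Tom fraction, and 0.0772, 0.0327 and 0.0878 in b-KC Co, 0.42, 0.322 and 0.741 in b-KC GFP and 0.0525, 0.094 and 0.0749 in b-KC Tom. It was called higher in both GFP fractions in the unfiltered fit, at log2 fold changes of 0.44 (adjusted p = 0.0141, limma) in HF-SCs and 0.48 (adjusted p = 0.0101, limma) in b-KCs. Ifit3, which binds Ifit1, had 3.63, 2.61 and 0.311 FPKM in HF-SC Tom and at most 0.390 elsewhere, and Ifi44 had 3.68, 2.83 and 0.533 in HF-SC Tom and at most 0.313 elsewhere. Both were high in the 2 libraries with the most endothelial signal. Rsad2 (viperin) had 0.575, 0.462 and 0.287 FPKM in HF-SC Tom beside 0.0387, 0.0566 and 0.0217 in HF-SC Co. Cmpk2, a nucleotide kinase whose gene is the neighbour of Rsad2, fell in b-KC Tom, from 0.594, 0.305 and 0.553 FPKM in Co to 0.104, 0 and 0.0158, with a log2 fold change in the unfiltered fit of -0.51 (adjusted p = 0.00588, limma). Ifit2 reached at most 1.19 FPKM, in HF-SC Tom of mouse 815, and Mx2 at most 0.724. Herc6, the main ISG15 ligase of mice, had 2.02, 2.17 and 0.757 FPKM in HF-SC Tom beside 0.887, 0.375 and 0.521 in HF-SC Co.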

How the data were processed

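Transcripts of 18 libraries (6 groups of 3) were analysed from a table of FPKM values per gene that the authors deposited. According to the study's methods and the submitters' notes, the authors aligned unstranded single-end reads with TopHat 2.0.10 and Bowtie 1.0.0 and estimated FPKM with Cufflinks 2.2.1. The methods name the mouse build NCBI37 (mm9), and the notes also list GRCm38 (mm10) without a role. Groups were taken from the labels.

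Genes that reached 1 FPKM in 3 or more libraries (12751 of 23951) were fitted together on log2(FPKM + 1) with limma 3.58.1 (R 4.3.3, eBayes with trend), as 1 mean per group over all 6 groups, with Benjamini-Hochberg adjustment over all genes tested and calls at an adjusted p under 0.05. The 4 comparisons with Co share their controls within each cell type. Intervals are at 95%. The code was tested on simulated data. P-values measure the spread between libraries within groups, pooled over all 6 groups and moderated across genes, with 3 mice a group. Libraries of the same mouse were treated as independent in this fit, and mouse entered only in the block alternatives.

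Depth was recovered from the steps of low FPKM values in 7151 genes with a single transcript, of which 77.9% to 81.6% per library lay within 0.1 of a whole read. Floors of 3 reads cover counting error only. No count test was run, since whole reads were not recovered for nearly all genes. Of 18 columns, 0 lacked a sample, and 0 pairs of libraries were identical.

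GFP and Tom of HF-SCs and b-KCs came from the same mice by the labels, and so did both Co groups, so mouse numbers pair the libraries. Deviations of same-mouse libraries from their group means correlated at 0.084 to 0.7 over 15 pairs, and the correlation within mice in the random block was 0.274.

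Results for a further gene of the interferon pathway, outside the 41 members, are left out. The members and the other gene lists were chosen with earlier results of these data known. Values in each library are given for the regulators, for the 12 members with the smallest adjusted p against Co, for members called against the direction of most, and for further members where a result turns on them. Promoter windows are RefSeq sequences of GRCm38.p6 and gene positions are NCBIM37. Alternatives were another pseudocount (0.1), no filter, an adjusted p under 0.01 with a log2 fold change of at least 2 in size, the compared groups alone, eBayes without trend, libraries rescaled by median ratio, mouse as a block, and each mouse left out. Python 3.11.15, pandas 2.3.3, numpy 2.4.6 and matplotlib 3.10.9 were used.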

Additional observations from a re-analysis of the deposited data

Results flagged for a closer look

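For 12 members the change from Co differed between HF-SCs and b-KCs by the interaction term (limma, adjusted p under 0.05). They were 1 of 30 for the change to GFP, beside 5.22% of all genes in that direction, and 11 of 30 for the change to Tom, beside 10.3%. For Usp18, the change from Co to GFP gave a log2 difference, HF-SC minus b-KC, of -1.08 (adjusted p = 0.0365, limma). For the change from Co to Tom, the difference was 1.16 for Ddx58, 1.48 for Gbp3, 1.54 for Irf1, 0.855 for Irf7, 1.35 for Isg15, 1.20 for Lgals3bp, 1.01 for Oasl2, 1.86 for Rtp4, 1.96 for Samd9l, 1.996 for Sp100 and 0.87 for Stat2. Leaving out the libraries of HF-SC Tom from mice 814 and 815, where endothelial markers were highest, left Stat2 called among the 11, at 0.93. The 11 fell to 1 to 3 without any 1 of mice 810, 814, 815, 825 and 828, and the call of Usp18 was lost without mouse 810, 815 or 825. Samd9l and Gbp3 had passed the filter on low values only through HF-SC Tom.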

How the results depend on the processing

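The numbers of members called are given here in the order GFP and Tom of HF-SCs against Co, GFP and Tom of b-KCs against Co, GFP against Tom in HF-SCs and in b-KCs, HF-SC Co against b-KC Co, and the changes from Co to GFP and from Co to Tom compared between cell types, which were 10, 19, 10, 6, 8, 3, 6, 1 and 11. At an adjusted p under 0.01 with a log2 fold change of at least 2 in size they were 0, 3, 0, 0, 2, 0, 0, 0 and 0. With only the compared groups in the fit, HF-SC Tom against Co gave 12, GFP against Tom gave 0 in HF-SCs and 0 in b-KCs, the Co groups gave 16 and the change to GFP gave 3. A pseudocount of 0.1 gave 10 between the Co groups, 2 for the change to GFP and 7 for the change to Tom, and no filter gave 0 for the change to GFP. Leaving out 1 mouse at a time gave ranges of 6 to 12, 10 to 26, 5 to 16, 4 to 12, 0 to 14, 0 to 4, 2 to 4, 0 to 8 and 1 to 17. Shares of all genes were not taken in those fits. Mouse 817 gave the upper end in every range but that of the Co groups, which hold other mice, and the cause was not tested.

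With the mouse as a fixed block for the paired groups, GFP against Tom gave 2 for HF-SCs and 7 for b-KCs and the Co groups gave 19, while under a random block the change to GFP gave 4. The fixed block was fitted on the compared groups alone, which without it gave 0, 0 and 16 in these comparisons. Under the random block, which kept all libraries, no other count moved by over 1.5 times.

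Leaving out the libraries of HF-SC Tom from mice 814 and 815, chosen after seeing the data, gave 4 for HF-SC Tom against Co, 1 for GFP against Tom in HF-SCs and 2 for the change to Tom. There, with 1 HF-SC Tom library left, Bst2 (-0.14), Gbp2 (-0.0098), Gbp7 (-0.12) and Xaf1 (-0.18) were not called and lay just below Co. With 3 mice a group, a change that was not called is not shown to be absent.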
